A study of Mus musculus with 18 samples.

Results

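tRNA-Cys-GCA, the cytosolic tRNA that carries cysteine and reads its codons with the anticodon GCA, was followed through all rows of the deposited table whose name starts with tRNA-Cys-. The mature tRNA was listed as 22 isodecoders (tRNAs that share the anticodon but differ elsewhere in the body) of the 213 mature tRNAs in the table. Its precursors (pre-tRNAs, the transcripts that still carry the 5′ leader or 3′ trailer) were listed at 36 genomic loci of 335, so that the family held 196 of the 3574 rows. Names were kept as in the table: tRNA-Cys-GCA-3 is isodecoder 3, and tRNA-Cys-GCA-3-4 is copy 4 of its gene. The loci were very unevenly spread over the isodecoders. Isodecoder 4 had 24 of them, isodecoder 3 had 4, isodecoder 1 had 2, and isodecoders 2, 5, 6, 7, 8 and 21 had 1 each, whereas the other 13 isodecoders had no precursor locus in the table. Antisense rows of the family, 22 in number, were left out and held 0 reads.

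RNA polymerase III transcribes tRNA genes into pre-tRNAs. RNase P, whose catalytic RNA is Rpph1, removes the 5′ leader, RNase Z removes the 3′ trailer, and the CCA end is then added to the mature tRNA. Several gene copies can give an identical mature tRNA, so reads of the body cannot be assigned to a copy, while leader and trailer sequences differ between copies and let precursor reads be placed at a locus. The mitochondrial tRNA for cysteine, mt-Tc, is encoded by the mitochondrial genome, and selenocysteine has its own tRNA, tRNA-SeC-TCA.

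Hippocampal small RNA of 18 male mice was sequenced by Hydro-tRNA-seq, in which RNA between 60 and 100 nucleotides is cut from a gel and hydrolysed with alkali, so that a read is a piece of a tRNA and not the whole molecule. Wild-type (WT) mice on a B6SJL background and 5xFAD mice, which carry mutant human transgenes under the neuronal Thy-1 promoter as a model of Alzheimer's disease, had received neuron-targeted rAAV2/8 vectors into CA1 and the dentate gyrus of both hippocampi at the age of 6 months. The vector expressed from the H1 promoter either a control hairpin (shCT) or a hairpin that silences RTP801 (shRTP801), a stress-induced inhibitor of mTOR, and in every group it also expressed GFP, so that no group was free of virus. The hippocampi were taken 4 weeks later, from 5 WT mice with shCT and 4 with shRTP801, and from 3 5xFAD mice with shCT and 6 with shRTP801, with 1 library per mouse. The study asked whether RTP801 alters the processing and the pool of tRNAs. The mRNA of RTP801 lies outside the small RNA fraction, so its knockdown could not be checked here, and fewer neurons or other cells cannot be told apart from less tRNA per cell in whole hippocampus.

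Between 9850676 and 20292469 mature tRNA reads and between 47875 and 318628 precursor reads were recovered per library. Among them were 263209 to 2207312 mature reads and 297 to 1809 precursor reads of tRNA-Cys-GCA. Of the brain small RNAs, tRNA-Arg-TCT-4, a tRNA of the central nervous system, had a median of 378 reads per library (61 to 6619). The 17 rows of the neuronal snoRNA Snord116 had a median of 764 (0 to 10126) and the 3 rows of Mir124a one of 5 (0 to 81). Mir9 had a median of 0 and at most 12 reads. No row matched the neuronal snoRNA Snord115 or the markers of liver, muscle and blood, so a missing row does not tell tissues apart. The libraries of WT shCT mouse 5, WT shRTP801 mouse 4 and 5xFAD shRTP801 mouse 7 stood apart from the rest. In these 3 libraries mature tRNAs were 96.1% to 98.7% of all reads (12.0% to 73.3% in the other 15), mt-tRNAs were 0.00314% to 0.427% (6.85% to 26.6%), and Rpph1 had 0 reads (4 to 85). They are named below wherever they moved a value of tRNA-Cys-GCA, and why they stand apart was not tested.

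Most mature reads of tRNA-Cys-GCA could be given to a set of isodecoders but not to 1 of them. The 5′ rows of isodecoders 1, 2 and 3 held 5186900, 5186896 and 5189713 reads over the 18 mice, and in no mouse did they differ by more than 401 reads or 0.181%. The table therefore does not tell these 3 isodecoders apart at the 5′ end. The 3′ rows paired differently. Isodecoders 3 and 7 had 218097 and 217769 3′ reads, and isodecoders 2 and 5 had 130727 and 130545, while isodecoders 1, 4, 11, 16, 17 and 21 formed a set with 11852 to 11932 reads each. The family therefore held 17263540 mature reads when rows were summed, and 2.85 times fewer when rows of a read type that differed by at most 5% were counted once, which was the highest such ratio among the 50 families (tRNA-Ile-AAT followed with 2.00). Sets of near-identical rows are called pools here. Values of isodecoders within 1 pool are not independent of each other.

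Counted once, the 5′ reads came almost entirely from the pool of isodecoders 1, 2 and 3, with 92.0% ± 0.96 (SD, n = 18) of the 5′ reads of the family and 88.9% to 93.5% in single mice. Isodecoder 8 followed with 4.26% ± 1.23, ahead of isodecoder 15 with 1.36%, isodecoder 17 with 1.101% and a pool of 9 isodecoders (4, 5, 6, 7, 9, 10, 12, 14 and 24) with 1.02%. The first of these pools did not separate the 3 libraries, which had 92.0% to 93.5%, from the other 15. The 3′ reads placed isodecoders 1, 2 and 3 in different pools. The pool of isodecoders 3 and 7 had 50.3% ± 11.8 of them and the pool of isodecoders 2 and 5 had 42.4% ± 11.3. The difference was smaller than either SD, which is a spread between mice and does not measure a difference within a mouse. The pool that includes isodecoder 1 had only 3.26% ± 0.31, and isodecoder 9, which has no locus in the table, had 2.72% ± 0.83.

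**Figure D1:**
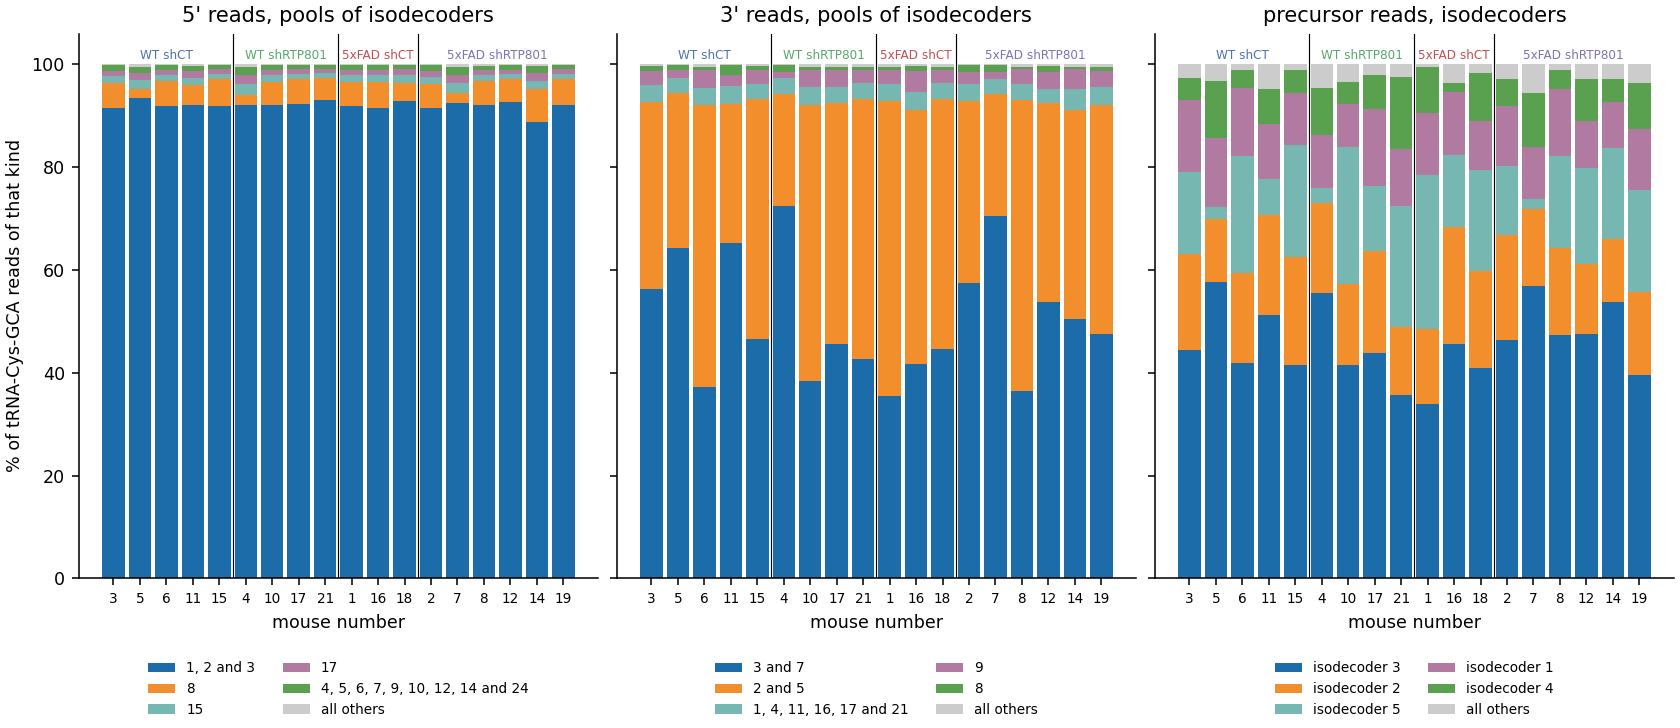
Share of each pool of isodecoders in the 5′ reads (left) and the 3′ reads (middle, both with near-identical rows counted once) and of each isodecoder in the precursor reads (right) of tRNA-Cys-GCA, in % (stacked bars, 1 bar per mouse, by group). The pool of isodecoders 1, 2 and 3 fills 88.9% to 93.5% of the 5′ reads in every mouse, while the share of isodecoders 3 and 7 in the 3′ reads runs from 35.4% to 72.5%.

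The share of the pool of isodecoders 3 and 7 in the 3′ reads differed widely between mice of the same group. It was 56.2%, 64.3%, 37.2%, 65.3% and 46.5% in WT shCT mice 3, 5, 6, 11 and 15, and 72.5%, 38.4%, 45.6% and 42.6% in WT shRTP801 mice 4, 10, 17 and 21. It was 35.4%, 41.7% and 44.6% in 5xFAD shCT mice 1, 16 and 18, and lay between 36.5% and 70.4% in the 6 5xFAD shRTP801 mice, with a median of 52.1%. Each group overlapped with the others. The 3 libraries that stood apart were at 64.3% to 72.5%, near or above the highest of the other 15, which ran from 35.4% to 65.3%. The pool of isodecoders 2 and 5 was at 21.8% to 30.1% in these 3 libraries and at 26.9% to 57.6% in the other 15.

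With rows summed as they are listed, isodecoder 3 led the mature reads with 31.3% ± 0.39 of the family (SD, n = 18), followed by isodecoder 2 with 30.04% ± 2.57 and isodecoder 1 with 28.9% ± 3.81. These 3 isodecoders together had 90.2% of the reads, a sum that counts their near-identical 5′ reads more than once. The differences between neighbours were smaller than the SD of the lower one. That SD is a spread between mice and does not measure a difference within a mouse. Isodecoder 7 had 2.90% ± 4.15, isodecoder 5 had 1.62% ± 1.48 and isodecoder 8 had 1.45% ± 0.43. The other 16 isodecoders had under 1% each, the highest of them isodecoder 17 with 0.48% and the lowest isodecoder 18 with 534 reads in all mice. Isodecoders 1, 2, 5, 7 and 8 lay outside the range of the other 15 in the 3 libraries that stood apart. Isodecoder 7 was at 10.3% to 12.8% there and at 0.462% to 2.90% in the other 15, isodecoder 5 was at 3.36% to 5.90% against 0.465% to 1.74%, and isodecoder 1 was at 19.7% to 22.6% against 29.0% to 31.4%. Isodecoder 2 was at 23.8% to 25.1% against 29.9% to 31.6%, and isodecoder 8 at 0.526% to 0.715% against 1.21% to 2.14%.

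Mature tRNA-Cys-GCA was read mainly at its 5′ end. On average, 91.1% ± 12.3 (SD, n = 18) of its mature reads were counted as 5′ fragments and 8.64% ± 12.4 as 3′ fragments, and 88.4% were 5′ fragments when near-identical rows were counted once. Whole tRNAs were nearly lacking, with 2071 reads in all mice, of which isodecoder 3 had 1229 and isodecoder 2 had 676. The other families, pooled, ran the opposite way, with 2.25% to 10.4% 5′ fragments and 61.4% to 96.2% 3′ fragments per library. Ranked by the 5′ share, tRNA-Cys-GCA was first of the 49 families compared in 15 of 18 mice and never below rank 3. The next families were tRNA-Val-TAC with a mean of 43.1% and tRNA-iMet-CAT with 39.1%, and the median over the other 48 families was 0.479%.

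**Figure D2:**
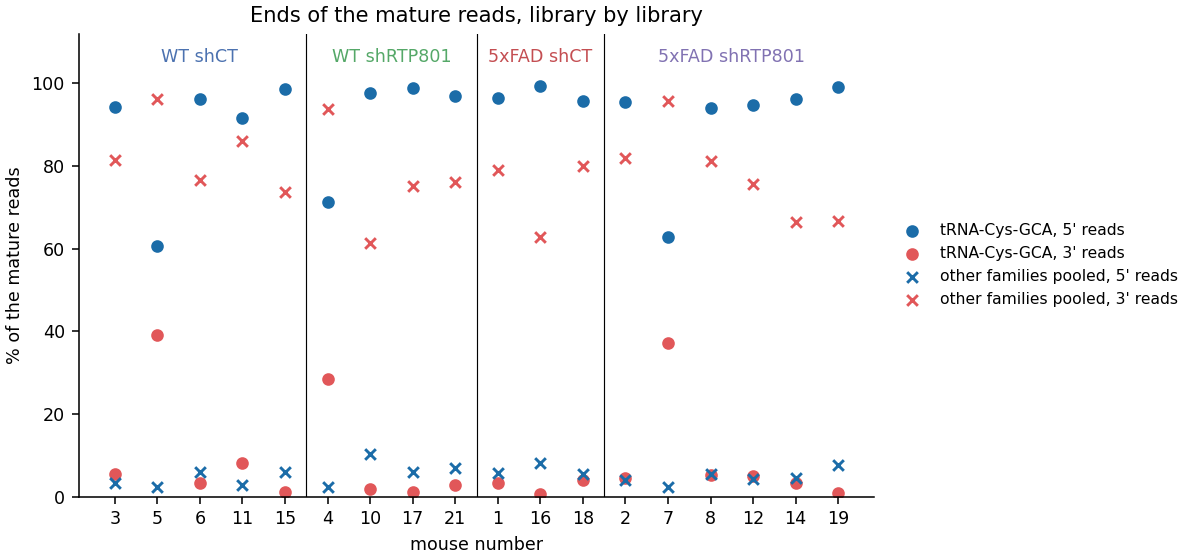
Percentage of mature reads that were 5′ fragments or 3′ fragments in each library, for tRNA-Cys-GCA and for all other families pooled (1 point per mouse, x axis by mouse number). 5′ fragments of tRNA-Cys-GCA are at 91.7% to 99.3% in 15 libraries and at 60.7% to 71.3% in the 3 libraries with few mt-tRNA reads, and those of the other families at 2.25% to 10.4%.

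The share of 5′ fragments was 94.3%, 60.7%, 96.2%, 91.7% and 98.7% in WT shCT mice 3, 5, 6, 11 and 15. It was 71.3%, 97.6%, 98.9% and 96.8% in WT shRTP801 mice 4, 10, 17 and 21, and 96.4%, 99.3% and 95.7% in 5xFAD shCT mice 1, 16 and 18. In the 5xFAD shRTP801 mice it ran from 62.8% to 99.0%, with a median of 95.1%. The low values, one in each of 3 groups, were those of the 3 libraries that stood apart. Group means were 88.3% ± 15.6 in WT shCT (n = 5), 91.2% ± 13.3 in WT shRTP801 (n = 4), 97.1% ± 1.92 in 5xFAD shCT (n = 3) and 90.3% ± 13.6 in 5xFAD shRTP801 mice (n = 6). Only 5xFAD shCT had none of the 3 libraries that stood apart, so its mean and SD include no such low value. None of the 4 read types of tRNA-Cys-GCA (whole, 5′, 3′ and other) passed the test in any comparison by limma, either after adjustment over all 196 combinations of family and read type (0% of all called) or at an unadjusted p under 0.05. At the latter threshold, 4.08% of all combinations passed between 5xFAD shCT and WT shCT, 2.55% between WT shRTP801 and WT shCT, 3.57% between 5xFAD shRTP801 and 5xFAD shCT, 4.08% between 5xFAD shRTP801 and WT shRTP801, and 12.2% for the interaction of genotype and treatment. The largest estimate for the 5′ share was the interaction, a log2 change of −0.17 ± 0.23 (SE, limma, adjusted p = 0.880).

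Precursor reads of tRNA-Cys-GCA numbered 15513 in all mice, of which 15509 were partial precursors, 3 were trailers and 1 was a whole precursor, so that there were 1113 listed mature reads for each precursor read. They came from few of the 36 loci. Locus tRNA-Cys-GCA-2-1 had 16.9% ± 3.12 of the precursor reads of the family (SD, n = 18), tRNA-Cys-GCA-3-4 had 16.2% ± 2.14 and tRNA-Cys-GCA-5-1 had 16.05% ± 8.16. These 3 means differed by less than the SD between mice of any of them, which does not measure a difference within a mouse. The other 3 copies of isodecoder 3 followed, with 13.3% ± 2.57 at 3-3, 9.68% ± 2.76 at 3-2 and 6.64% ± 1.42 at 3-1. The 2 copies of isodecoder 1 had 6.42% ± 1.23 (1-2) and 4.97% ± 1.21 (1-1), and 7-1 had 2.13% ± 1.11. These 9 loci had 92.4% of the precursor reads and were the only ones of the 36 with reads in every mouse. The other 27 loci had 16 to 125 reads each in all 18 mice together and were at 0 in 1 to 12 mice.

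**Figure D3:**
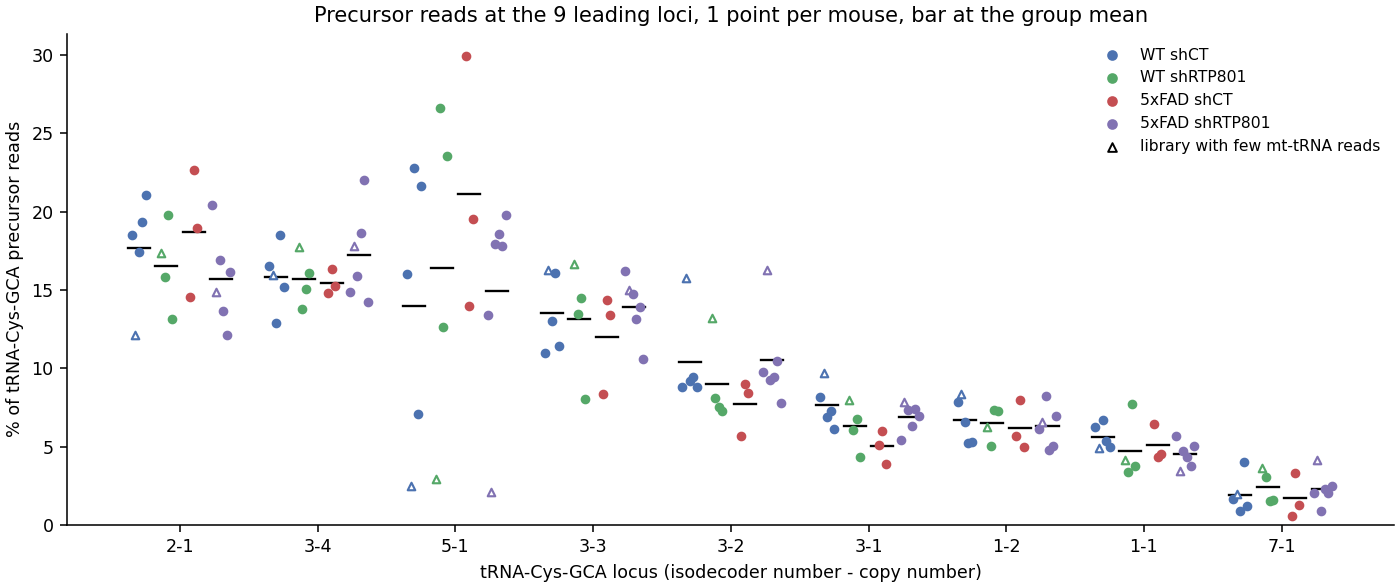
Share of the 9 leading loci in the precursor reads of tRNA-Cys-GCA (%), with 1 point per mouse coloured by group, a bar at the group mean and triangles for the 3 libraries with few mt-tRNA reads. Locus 5-1 spans 2.07% to 29.9%, with the 3 triangles at its lower end, while at locus 2-1 the groups overlap between 12.1% and 22.7%.

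Isodecoder 4 had most of the loci and few of the reads. Its 24 loci had 23 to 125 reads each and 1171 together, which was 6.95% ± 3.25 of the precursor reads of the family and 1.67% to 13.9% in single mice. Its mature form had 0.45% of the mature reads. Sets of its loci had near-identical reads (4-5, 4-19 and 4-26; 4-2, 4-4 and 4-17; 4-22 and 4-25; 4-14 and 4-18), so that fewer than 24 copies could be told apart. By contrast, the 4 loci of isodecoder 3 had 45.9% ± 6.96 of the precursor reads. Summed in the same way, isodecoder 2 had 16.9%, isodecoder 5 had 16.05%, isodecoder 1 had 11.4% ± 1.90 and isodecoder 7 had 2.13%, while isodecoder 21 had 0.46%, isodecoder 8 had 0.13% and isodecoder 6 had 0.08%. The order of the precursors was not the order of the mature rows, in which isodecoder 5 had 1.62% and isodecoder 1 had 28.9%. That 28.9% rests on 5′ reads listed almost equally at isodecoders 2 and 3. At the 3′ end isodecoder 1 had 11929 reads and isodecoder 5 had 130545, in a row near-identical to that of isodecoder 2. The mismatch of isodecoders 1 and 5 between precursors and mature rows therefore depends on how reads are listed. Isodecoder 8 had 4.26% of the 5′ reads of the family, counted once, while the only locus listed for it had 25 precursor reads in all mice.

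Set against the pools of the 3′ reads, the precursors of isodecoders 3 and 7 had 48.0% of the precursor reads (34.5% to 61.1%), where the same pool had 50.3% of the 3′ reads. The precursors of isodecoders 2 and 5 had 33.0% (14.6% to 44.5%), against 42.4% of the 3′ reads. For isodecoders 1, 4, 11, 16, 17 and 21 the precursors had 18.8% (12.8% to 25.5%) and the 3′ reads 3.26% (2.70% to 4.09%), and these ranges did not overlap. How well each end is captured in such libraries was not tested.

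Locus 5-1 varied most among the leading loci. It had 16.04%, 2.48%, 22.8%, 7.08% and 21.6% of the precursor reads of the family in WT shCT mice 3, 5, 6, 11 and 15. In WT shRTP801 mice 4, 10, 17 and 21 it had 2.92%, 26.6%, 12.6% and 23.6%. In 5xFAD shCT mice 1, 16 and 18 it had 29.9%, 14% and 19.5%, and in 5xFAD shRTP801 mice it ran from 2.07% to 19.8%, with a median of 17.9%. The groups overlapped, and the 3 lowest values were those of the 3 libraries that stood apart, in which 33 to 48 reads lay behind each value. The Wilson 95% interval of the lowest, 2.07% in 5xFAD shRTP801 mouse 7, was 1.48% to 2.89%, and that of the highest, in 5xFAD shCT mouse 1, was 25.5% to 34.8%. Such intervals cover counting error only. Without the 3 libraries the locus was at 18.8% ± 5.79 (7.08% to 29.9%). At 3-2 the 3 libraries were high instead, with 13.2% to 16.3% against 5.66% to 10.5% in the other 15.

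The leading locus, 2-1, was at 18.5%, 12.1%, 17.4%, 19.3% and 21.1% in WT shCT mice 3, 5, 6, 11 and 15, and at 17.4%, 15.8%, 19.8% and 13.2% in WT shRTP801 mice 4, 10, 17 and 21. It was at 14.6%, 22.7% and 18.9% in 5xFAD shCT mice 1, 16 and 18 and at 12.1% to 20.4% with a median of 15.5% in 5xFAD shRTP801 mice, so that all groups overlapped. Group means were 17.7% with shCT and 16.5% with shRTP801 in WT mice, and 18.7% and 15.7% in 5xFAD mice. None of the 4 differences between groups passed a two-sided exact permutation test (differences of −3.01 to 1.03 percentage points, exact p = 0.262 to 0.714, 0.714 after Benjamini-Hochberg adjustment over the 4). The leading isodecoder, 3, had group means of 31.3%, 31.6%, 31.3% and 31.3% in the same order. Its largest differences were 0.382 percentage points between WT shRTP801 and WT shCT mice (exact permutation p = 0.0794, adjusted p = 0.317) and −0.383 between 5xFAD shRTP801 and WT shRTP801 mice (exact permutation p = 0.267, adjusted p = 0.533). The smallest p these designs allow ran from 0.00952 to 0.0357. Isodecoders 1, 2 and 3 list nearly the same 5′ reads, so the summed share of isodecoder 3 could move little between mice. Its test therefore says little about whether isodecoder 3 itself differed between groups.

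The family as a whole had 6.91% ± 4.53 of the mature tRNA reads (SD, n = 18) and was the fifth of 50 families by that mean, behind tRNA-Gly-CCC, tRNA-Asp-GTC, tRNA-Asn-GTT and tRNA-Gly-GCC. With near-identical rows counted once in all families it had 2.81% ± 1.95 and was at rank 9. The share was 6.46%, 1.34%, 5.93%, 6.35% and 12.8% in WT shCT mice 3, 5, 6, 11 and 15, and 2.04%, 7.65%, 12.8% and 6.12% in WT shRTP801 mice 4, 10, 17 and 21. It was 5.01%, 17.1% and 4.98% in 5xFAD shCT mice 1, 16 and 18, and in 5xFAD shRTP801 mice the lowest was 1.56%, the median 4.80% and the highest 14.7%. Mice within a group thus differed by more than the groups did. The 3 libraries that stood apart were the 3 lowest, at 1.34% to 2.04% against 3.31% to 17.1% in the other 15.

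**Figure D4:**
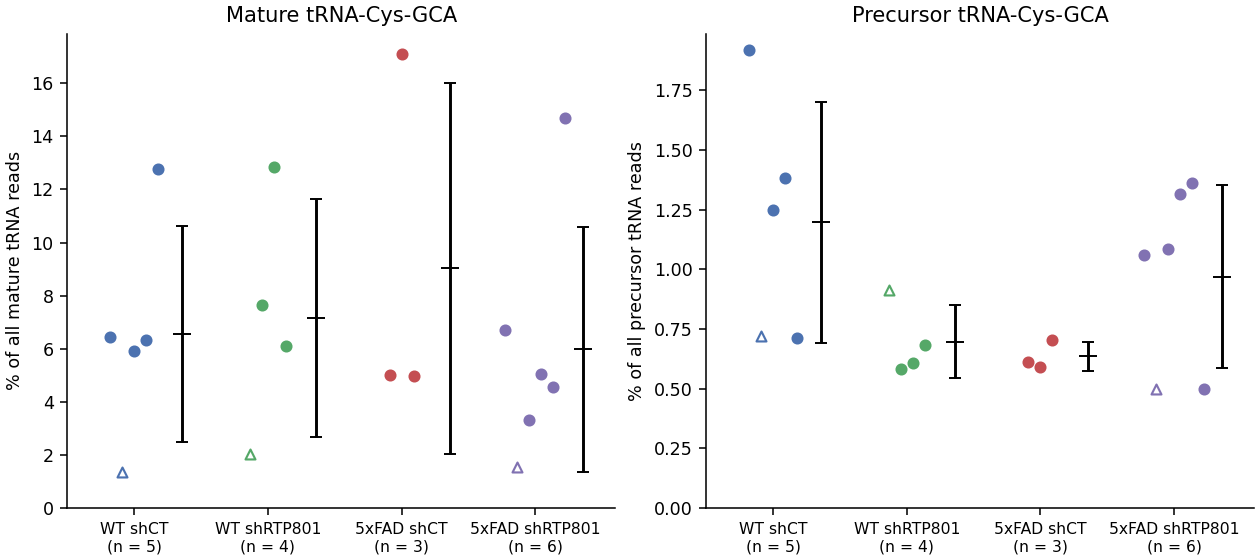
Share of tRNA-Cys-GCA in the mature tRNA reads (left) and in the precursor tRNA reads (right) of each mouse, in %, by group, with the group mean and SD; triangles are the 3 libraries with few mt-tRNA reads. Mature shares overlap between all groups, and the 3 5xFAD shCT precursor shares, 0.590% to 0.705%, sit just below the lowest of the 5 WT shCT mice at 0.714%.

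Group means of the mature share were 6.57% ± 4.07 in WT shCT (n = 5), 7.16% ± 4.47 in WT shRTP801 (n = 4), 9.03% ± 6.98 in 5xFAD shCT (n = 3) and 5.97% ± 4.61 in 5xFAD shRTP801 mice (n = 6). On the log2 scale, 5xFAD shCT differed from WT shCT by 0.51 ± 0.77 (SE, limma, adjusted p = 0.739) and WT shRTP801 from WT shCT by 0.16 ± 0.70 (adjusted p = 0.991, limma). 5xFAD shRTP801 differed by −0.66 ± 0.74 from 5xFAD shCT (adjusted p = 0.949, limma) and by −0.31 ± 0.68 from WT shRTP801 (adjusted p = 0.858, limma). The interaction, that is the change with shRTP801 in 5xFAD minus that in WT mice, was −0.82 ± 1.02 (adjusted p = 0.624, limma). No family passed in any of these comparisons, 0% of the 49 mature and of the 48 precursor families. Each SE of the mature share was larger than 0.6, and a change must exceed its SE by a good margin to pass. Changes of about the size of the SE, or smaller, could therefore not be told from the spread between mice. The comparisons share groups of mice and are not independent. When the share was taken of all reads instead of mature tRNA reads, each of the 5 estimates changed sign, and with the deposited normalization 3 of them did. Without the 3 libraries that stood apart the 5 estimates were 0.01, 0.18, −0.34, −0.50 and −0.52 in the order given above.

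In the precursor tRNA reads the family had 0.917% ± 0.396 (SD, n = 18) and was at rank 15 of 48 families. The share was 1.92%, 0.723%, 1.25%, 1.38% and 0.714% in WT shCT mice 3, 5, 6, 11 and 15, and 0.916%, 0.584%, 0.608% and 0.684% in WT shRTP801 mice 4, 10, 17 and 21. It was 0.612%, 0.590% and 0.705% in 5xFAD shCT mice 1, 16 and 18, and ran from 0.498% to 1.36% in 5xFAD shRTP801 mice, with a median of 1.07%. The 5xFAD shCT mice were all below the WT shCT mice, by a gap (0.705% to 0.714%) inside the Wilson 95% intervals of the mice on either side of it, 0.646% to 0.771% for 5xFAD shCT mouse 18 and 0.643% to 0.794% for WT shCT mouse 15. The other groups overlapped with their comparison groups.

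Group means of the precursor share were 1.20% ± 0.503 in WT shCT (n = 5), 0.698% ± 0.151 in WT shRTP801 (n = 4), 0.636% ± 0.0611 in 5xFAD shCT (n = 3) and 0.970% ± 0.384 in 5xFAD shRTP801 mice (n = 6). The log2 change was −0.81 ± 0.41 between 5xFAD shCT and WT shCT (SE, limma, adjusted p = 0.312) and −0.70 ± 0.37 between WT shRTP801 and WT shCT (adjusted p = 0.388, limma). It was 0.50 ± 0.39 between 5xFAD shRTP801 and 5xFAD shCT (adjusted p = 0.568, limma) and 0.38 ± 0.36 between 5xFAD shRTP801 and WT shRTP801 (adjusted p = 0.966, limma). For the interaction it was 1.19 ± 0.54 with an unadjusted p of 0.0426 and an adjusted p of 0.227 by limma. At that unadjusted threshold 20.8% of all precursor families passed for the interaction. The median change over all precursor families was between −0.16 and −0.01 in the 5 comparisons. Without the 3 libraries that stood apart the interaction was 1.65 with an adjusted p of 0.0919 by limma. This exclusion was added after the data were seen. Its adjusted p was the lowest of all settings tried, and the highest was 0.646.

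**Figure D5:**
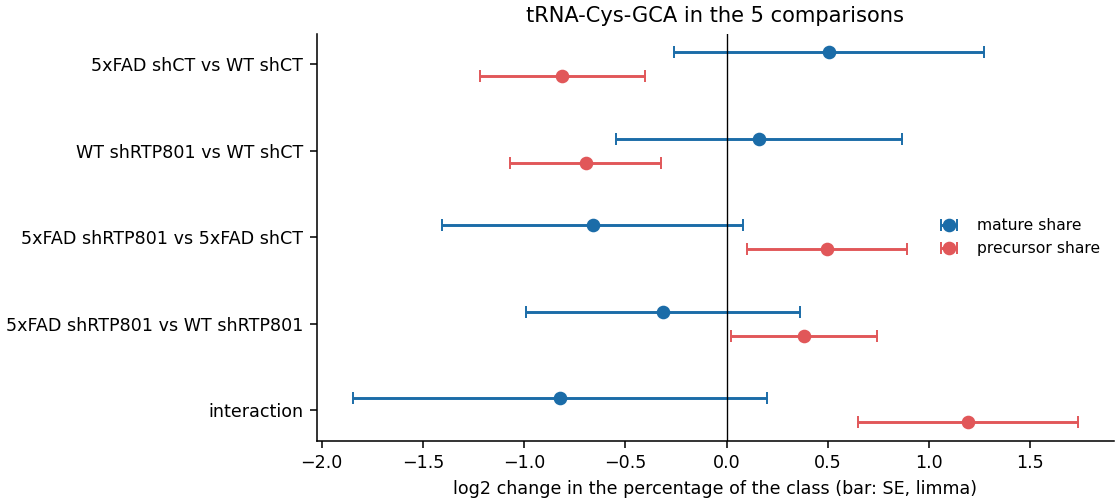
log2 change of the mature and of the precursor share of tRNA-Cys-GCA in the 5 comparisons (points) with the SE from limma (bars) and a line at no change. The precursor estimates run from −0.81 to 1.19 with SEs of 0.36 to 0.54, the mature ones from −0.82 to 0.51 with SEs of 0.68 to 1.02, and none passed after adjustment.

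At the level of single members, 20 of the 22 isodecoders and 35 of the 36 loci had a mean of at least 0.001% of their class and were tested with all other mature tRNAs (186) and loci (333). After adjustment limma called 0 of 20 isodecoders and 0 of 35 loci in each of the 5 comparisons, where 0% of all features of either class were called. At an unadjusted p under 0.05, 0 of 20 isodecoders passed by limma in each comparison, while between 5xFAD shCT and WT shCT 1 passed by edgeR and 2 by DESeq2. The share of all mature tRNAs that passed by edgeR or DESeq2 is not given here, so those counts have no background. Of all mature tRNAs, 5.38% passed by limma at that threshold between 5xFAD shCT and WT shCT, 10.8% between WT shRTP801 and WT shCT, 1.08% between 5xFAD shRTP801 and 5xFAD shCT, 0.538% between 5xFAD shRTP801 and WT shRTP801 and 9.68% for the interaction. Applied to the recovered reads, edgeR and DESeq2 also called no member of the family. The isodecoder with the smallest p between 5xFAD shCT and WT shCT was 16, with a log2 change of −0.57 ± 0.29 (SE, limma, adjusted p = 0.539), and it had the smallest p for the interaction too, with 0.63 ± 0.38 (adjusted p = 0.473, limma). In the remaining comparisons it was isodecoder 5 between WT shRTP801 and WT shCT (−0.31 ± 0.18, adjusted p = 0.689, limma), 15 between 5xFAD shRTP801 and 5xFAD shCT (−0.83 ± 0.66, adjusted p = 0.955, limma) and 19 between 5xFAD shRTP801 and WT shRTP801 (−0.14 ± 0.21, adjusted p = 0.986, limma).

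More loci of the family had lower than higher estimates in 5xFAD shCT than in WT shCT mice, 29 of 35 with a median log2 change of −0.74, beside a median of 0.03 over all 333 loci. Between WT shRTP801 and WT shCT mice 24 of 35 were lower (median −0.13, all loci −0.06). Between 5xFAD shRTP801 and 5xFAD shCT mice 26 of 35 were higher (median 0.64, all loci −0.13), between 5xFAD shRTP801 and WT shRTP801 mice 19 were higher (median 0.17, all loci −0.03), and 28 were higher for the interaction (median 0.79, all loci −0.01). Loci that share reads, as within isodecoder 4, move together by construction. Most loci of the family, 27 in number, had 16 to 125 reads in all mice together, so their estimates depend on the pseudocount. The share of all loci that were lower or higher is not given here. These counts of directions therefore cannot be read as particular to the family or as separate loci agreeing. At an unadjusted p under 0.05 by limma, 4 of 35 loci passed for 5xFAD shCT against WT shCT (15.6% of all loci), 4 between WT shRTP801 and WT shCT mice (10.2%), 3 between 5xFAD shRTP801 and 5xFAD shCT mice (7.51%), 0 between 5xFAD shRTP801 and WT shRTP801 mice (2.1%) and 6 for the interaction (15.3%). In the same order, 12, 4, 7, 0 and 12 loci of the family passed that threshold by edgeR and 8, 3, 5, 0 and 9 by DESeq2, none of them after adjustment. The share of all loci that passed it by edgeR or DESeq2 is not given here. The counts by these tools therefore cannot be read as particular to the family.

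Locus tRNA-Cys-GCA-4-12 had the smallest p of the loci in 3 comparisons and rested on 23 reads. It had 3, 5, 2, 6 and 1 reads in WT shCT mice 3, 5, 6, 11 and 15, then 1, 0, 0 and 0 in WT shRTP801 mice 4, 10, 17 and 21 and 0 in each of the 3 5xFAD shCT mice. The 6 5xFAD shRTP801 mice had 0 to 2. The adjusted p by limma was 0.201 between 5xFAD shCT and WT shCT, 0.175 between WT shRTP801 and WT shCT and 0.159 for the interaction. At so few reads the fitted change depends on the pseudocount, and no fold is given. Without WT shRTP801 mouse 4, one of the libraries that stood apart, the interaction at this locus had an adjusted p of 0.0454 by limma, and over all alternatives its adjusted p ran up to 0.743. The smallest p between 5xFAD shRTP801 and 5xFAD shCT mice was at 4-10 (2 to 9 reads against 0 to 1, adjusted p = 0.452, limma), and that between 5xFAD shRTP801 and WT shRTP801 mice was at 21-1 (2 to 16 reads against 0 to 10, adjusted p = 0.991, limma).

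Set beside other families with many isodecoders or loci, tRNA-Lys-CTT (12 isodecoders, 11 loci) had a single leading isodecoder with 76.2% ± 3.44 of its mature reads and tRNA-Ala-AGC (9 isodecoders, 10 loci) one with 42.4% ± 3.595, against 31.3% for tRNA-Cys-GCA. The 3 leading isodecoders had 98.8%, 85.7% and 90.2% of the reads in these families. The ratio of listed reads to reads counted once was 1 for tRNA-Lys-CTT, 1.03 for tRNA-Ala-AGC and 2.85 for tRNA-Cys-GCA. The 3 leading isodecoders of tRNA-Cys-GCA list nearly the same 5′ reads, so these reads enter its family total more than once. Its 31.3% and 90.2% therefore cannot be compared directly with the values of the other families. Whether tRNA-Cys-GCA has a single leading isodecoder cannot be read from them. Among precursors the 3 leading loci of tRNA-Lys-CTT, tRNA-Ala-AGC and tRNA-Cys-GCA had 73.2%, 67.3% and 49.2% of the reads, and 7, 10 and 9 loci had at least 1%. 5′ fragments were 1.21% of the mature reads of tRNA-Lys-CTT and 0.185% of those of tRNA-Ala-AGC.

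The families whose mature share was most like that of tRNA-Cys-GCA over the 18 mice were tRNA-Gln-CTG, tRNA-Gly-GCC and tRNA-Gln-TTG (Pearson r of the log2 percentages of 0.82, 0.80 and 0.73). Without the 3 libraries that stood apart r was 0.35, 0.35 and 0.22, so that the likeness rested on these libraries. For the precursor share they were tRNA-Gln-CTG, tRNA-Ala-TGC and tRNA-Gly-CCC (r of 0.83, 0.72 and 0.71, and 0.83, 0.74 and 0.80 without the 3 libraries). All shares of a library have a common total, which ties them to each other. Mitochondrial mt-Tc had group means of 0.249% (shCT) and 0.180% (shRTP801) of all reads in WT mice and of 0.264% and 0.216% in 5xFAD mice with all libraries, and of 0.312% and 0.237% in WT and 0.264% and 0.259% in 5xFAD mice without the 3 that stood apart, so that the order of WT shCT and 5xFAD shCT turned. The selenocysteine tRNA tRNA-SeC-TCA had 0.461%, 0.961%, 1.22% and 0.542% of the mature reads in the same order with all libraries, with 0.00783% to 1.94% in single mice, and its log2 difference for 5xFAD shCT against WT shCT was 3.003 ± 1.59 (SE, limma, adjusted p = 0.501).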

How the data were processed

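Per the labels, small RNA of 60 to 100 nucleotides from both hippocampi was hydrolysed, treated with T4 PNK and sequenced on an Illumina HiSeq as paired reads of 50 bases. The authors counted reads with tRAX per mature tRNA, pre-tRNA locus and read type; the submitters' notes name build mm39, no version of tRAX is stated, and the aligner is not given in the sources used here. The deposited values are a normalized signal, reads divided by a size factor of the library. Every value was a whole multiple (tolerance 0.001) of the smallest non-zero value of its library, 100% of values in all 18 libraries, and counts were recovered from the deposited signal by that division. Row totals include reads listed at several rows. Whole, 5′, 3′ and other rows were summed as mature, and whole, partial and trailer precursor rows as precursor; locus coordinates and tRNA sequences were not used here.

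Percentages of the class were compared as log2(% + 0.001%) for features whose mean reached 0.001%, in 1 fit over all 4 groups with limma 3.58.1 (R 4.3.3), adjusted over all features with a threshold of 0.05; read types used a pseudocount of 0.1 percentage points. Leading members were compared by exact permutation (scipy 1.17.1, Python 3.11.15). Alternatives were other pseudocounts, filters, scalings, denominators, samples in the fit and variance models, partial precursors only, leaving out each mouse, edgeR 4.0.16 and DESeq2 1.42.0. Counting near-identical rows once and leaving out the 3 libraries were added after seeing the data. Isodecoders with at least 1% and loci with at least 2% of the family, and those with the smallest p per comparison, are named. The members and lists were chosen with earlier results of these data known. The fits were also run on simulated data with known changes. The spread of those data was set in advance and not taken from these mice, so they do not show how the fits perform at the spread seen here.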

Additional observations from a re-analysis of the deposited data

Results flagged for a closer look

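In the groups of 4 to 6 mice, 69 checks were made for a mouse far from the rest of its group (the gap to its nearest neighbour over the range of the group, against Dixon's 95% value), which chance passes in about 1 of 20. Far values were found 24 times, and all 24 were in the 3 libraries with few mt-tRNA reads. The checks are not independent of each other. The 5′ and 3′ shares make up nearly all mature reads, and the isodecoders share rows. The number of far values therefore cannot be set against the rate of 1 of 20. For the 5′ share of mature tRNA-Cys-GCA these were 60.7% in WT shCT mouse 5, 71.3% in WT shRTP801 mouse 4 and 62.8% in 5xFAD shRTP801 mouse 7. In the same order, the 3′ share was 39.2%, 28.6% and 37.1%, isodecoder 2 had 24.8%, 25.1% and 23.8% of the mature reads of the family, and isodecoder 1 had 19.7%, 22.6% and 20.1%. Isodecoder 7 had 12.3%, 10.3% and 12.8%, isodecoder 5 had 5.90%, 3.36% and 4.54%, and precursor locus 3-2 had 15.7%, 13.2% and 16.3% of the precursor reads. Isodecoder 8 was far only in WT shRTP801 mouse 4, with 0.715%. Locus 5-1, with 2.07%, and the precursor pool of isodecoders 2 and 5, with 16.9%, were far only in 5xFAD shRTP801 mouse 7. No interaction of genotype and treatment passed for the family or a member with all libraries included.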

How the results depend on the processing

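No paired analysis was possible because the groups share no mouse number. Of the values recomputed for the comparisons, 794 kept their direction, where they had one, and side of the threshold, 25 changed direction and 1 newly passed. Numbers of called members that stayed at 0 are among the 794 and have no direction, so 794 overstates how many estimates held. The cause of the changes was not tested. All log2 changes that turned were of the mature share of tRNA-Cys-GCA. With deposited normalized counts it was −0.26 for 5xFAD shCT against WT shCT, −0.31 for WT shRTP801 against WT shCT and 0.20 for the interaction. As a percentage of all reads it was −0.41 and −0.43 for these comparisons, 0.20 for 5xFAD shRTP801 against 5xFAD shCT, 0.22 for 5xFAD shRTP801 against WT shRTP801 and 0.63 for the interaction. Leaving out 1 mouse at a time gave −0.0837 (without 5xFAD shCT mouse 16) to 0.82 for 5xFAD shCT against WT shCT, −0.33 (without WT shCT mouse 5; −0.21 without WT shRTP801 mouse 17) to 0.67 for WT shRTP801 against WT shCT, and −0.83 to 0.0580 (without WT shRTP801 mouse 17; 0.0079 without 5xFAD shRTP801 mouse 7) for 5xFAD shRTP801 against WT shRTP801. The precursor share kept its directions, with −0.97 to −0.62, −0.86 to −0.50, 0.38 to 0.67, 0.26 to 0.55 and, for the interaction, 0.997 to 1.36. In percentage points, leaving out 1 mouse moved the leading isodecoder between −0.0522 and 0.107 (5xFAD shCT against WT shCT) and between −0.173 and 0.152 (5xFAD shRTP801 against 5xFAD shCT), and the leading locus between −0.947 and 3.11 (5xFAD shCT against WT shCT) and between −1.96 and 0.247 (5xFAD shRTP801 against WT shRTP801). Called loci for the interaction ran from 0 to 1, which was 4-12 without WT shRTP801 mouse 4. Counting near-identical rows once gave mature changes of 0.51, 0.15, −0.66, −0.31 and −0.82, and leaving out the 3 libraries gave 0.01, 0.18, −0.34, −0.50 and −0.52, with no call in either. The 297 to 1809 precursor reads of the family per library limit the loci under 2%, and reads shared between rows limit the isodecoders.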

Other observations

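Isodecoders 2 and 5 had near-identical 3′ rows, and the balance of the pool of isodecoders 2 and 5 against that of 3 and 7 could be compared between mature 3′ reads and precursors, a relation chosen after the data were seen and the only one computed. Over the 15 libraries without the 3 that stood apart, the pool of isodecoders 2 and 5 had 32.3% to 56.3% of the precursor reads of both pools and 29.2% to 61.9% of their 3′ reads. Pearson's r was 0.742 (permutation p = 0.00178, two-sided, 100000 resamples) and Spearman's rho 0.664 (permutation p = 0.00826). Without the 2 libraries farthest from the median of the precursor share, r was 0.525 (permutation p = 0.0709) and rho 0.484 (permutation p = 0.0983), over a narrower precursor share of 34.9% to 50.0%, so that the relation no longer passed a threshold of 0.05 without those libraries.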
